A study of Mus musculus with 2 samples.

Results

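Matrix metalloproteinases (MMPs), ADAM and ADAMTS proteinases, ADAMTS-like proteins and the tissue inhibitors of metalloproteinases (TIMPs) were compared between posterior and anterior limb bud tissue. The members were taken by their gene symbols, as every MMP, ADAM, ADAMTS, ADAMTS-like and TIMP gene with a probe set annotated to 1 symbol. This gave 65 of the 14860 genes measured: 20 MMPs, 25 ADAMs, 12 ADAMTS genes, 4 ADAMTS-like genes and 4 TIMPs. The RefSeq gene table listed 84 mouse genes with such symbols, and the other 19, among them Adam17, Adamts9, Mmp15 and Mmp25, had no single-symbol probe set and are not analysed here. The tissue came from wild-type CD1 mouse embryos, an outbred stock, at embryonic day 10.5. Limb buds of 8 litters were cut at the midline into an anterior part, the side of the future thumb, and a posterior part, the side of the future little finger. The parts were pooled, and each pool was hybridised to 1 array, so neither group has a replicate and no test of a gene was possible. Arrays of pooled tissue cannot tell fewer cells of a type from less RNA per cell.

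These enzymes cut the extracellular matrix and the outer parts of membrane proteins. MMPs are made as inactive proenzymes and degrade collagens and other matrix proteins, ADAMs shed growth factors and receptors from cell surfaces, and ADAMTS proteinases are secreted and cut proteoglycans and procollagens. ADAMTS-like proteins share the matrix-binding domains of ADAMTS enzymes without the proteinase, and TIMPs bind to the active site of MMPs and of some ADAM and ADAMTS enzymes. In limb buds the family is known for remodelling of the matrix around mesenchyme and, later, for cartilage growth and for regression of the tissue between digits.

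Levels are given as log2 values from RMA, and a difference is the posterior minus the anterior value unless a side is named. Detected means that at least 1 array read above 5.06, the 95th percentile of 852 receptor and defensin genes not known from limb buds. Of the 65 members 29 (44.6%) were detected, against 60.7% of all genes. The submitters' own threshold of 1.3-fold, a log2 difference of 0.38, was passed toward posterior tissue by Adamts19 alone among the 65 members. Across all genes 3.77% passed toward posterior and 4.8% toward anterior tissue. Toward anterior tissue 3 members passed by their measured values, Timp2, Adam6a and Adam6b, and neither Adam6a nor Adam6b was detected. Among detected genes 1.85% passed toward posterior and 4.68% toward anterior tissue, and among the 29 detected members 1 passed each way. The detected members split into 13 with the higher value in posterior tissue, 13 with the higher value in anterior tissue and 3 with equal values. Their median difference was 0.00, while that of all detected genes was -0.07.

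**Figure D1:**
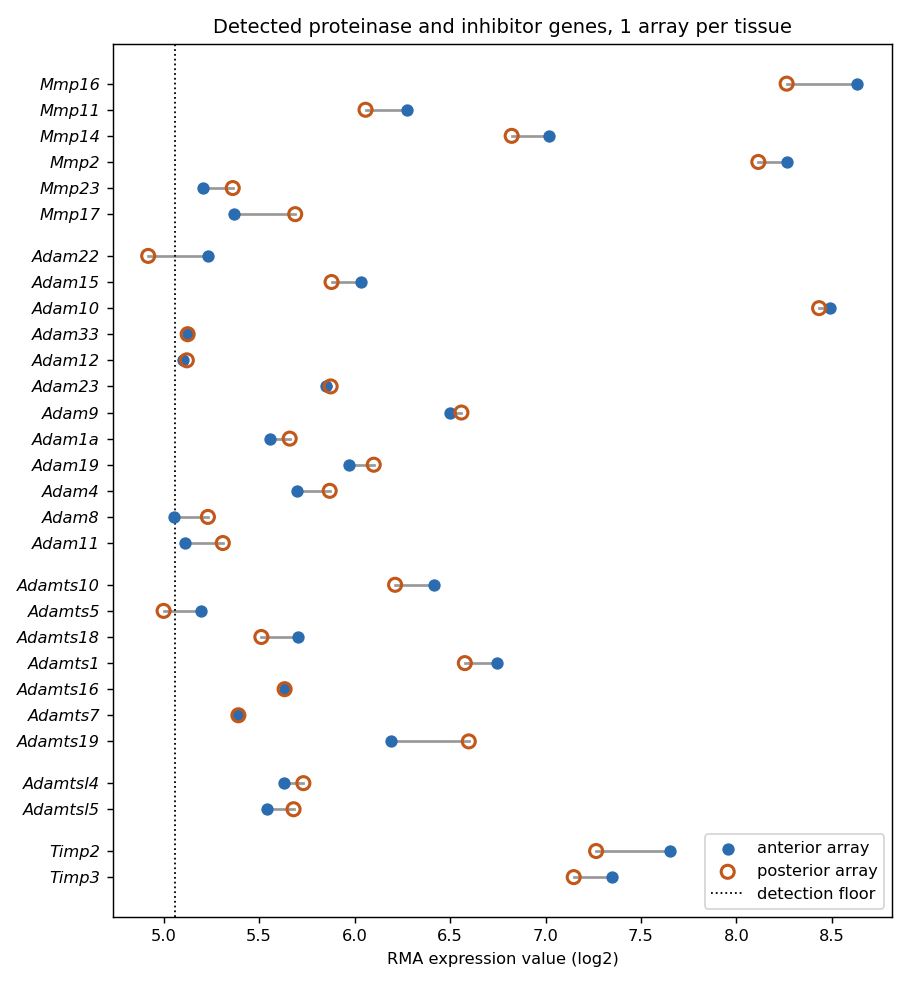
RMA expression values (log2, horizontal axis) of the 29 detected members in the anterior array (filled points) and the posterior array (open points), grouped by family, with the detection floor of 5.06 as a dotted line. The widest gaps are those of Adamts19 toward posterior tissue and Timp2 and Mmp16 toward anterior tissue.

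The labels were checked with genes known from either side of the bud. Shh, Hand2, Hoxd13, Ptch1 and Gli1 had the higher value in posterior tissue and Gli3 and Alx4 in anterior tissue, all 7 past 1.3-fold. All 8 limb mesenchyme markers examined were detected. Their summed level was 11.41 in anterior and 11.20 in posterior tissue on the log2 scale. Of the 8, 6 had the higher value in anterior and 2, Tbx4 and Fgf10, in posterior tissue. Prrx2, Twist1 and Msx1 passed 1.3-fold toward anterior tissue, and Tbx4 lay just under it toward posterior tissue. With the drift over all genes described below subtracted, Twist1 fell under the threshold (0.35) and Tbx4 passed it toward posterior tissue (0.47). Of 12 macrophage markers 4 were detected, with a summed anterior level of 8.68 and a summed posterior level of 8.40, and the defining genes Ptprc, Csf1r and Adgre1 were not detected. Tyrobp, a detected macrophage marker, was 1.82-fold higher in anterior tissue. Of 7 trunk and body wall markers, all detected, 4 had the higher value in anterior and 3 in posterior tissue. Foxc2 and Pax1 passed 1.3-fold toward anterior tissue, Pax1 no longer with the drift subtracted (0.37). None passed toward posterior tissue, where Gata4 was 1.27-fold and Wt1 1.25-fold higher. Their summed levels were 8.45 in anterior and 8.38 in posterior tissue. Summed endothelial levels were 10.20 and 10.18, and ectodermal levels 9.87 and 9.92. Of 9 ectodermal markers, all detected, 6 had the higher value in anterior and 3 in posterior tissue. Krt5 among them was 1.40-fold higher in posterior tissue. Myod1, a muscle progenitor marker, lay under the floor in the anterior array (4.70) and read 5.10 in the posterior array. The gap between these readings exceeded 1.3-fold, but the posterior value was only 1.03-fold above the floor. The other detected muscle progenitor markers, Pax3 and Met, were higher in posterior tissue by 0.06 and 0.09. No ectodermal or muscle progenitor marker passed toward anterior tissue. The part of cell composition in the differences below was not tested.

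Mmp2, its known activators Mmp14 and Mmp16, and the inhibitors Timp2 and Timp3 had higher values in anterior tissue throughout. Mmp2, the gelatinase that degrades basement membrane and denatured collagen, read 8.26 in the anterior and 8.11 in the posterior array. Mmp14, a membrane-anchored collagenase, read 7.02 and 6.82. Timp2, which inhibits MMPs and also tethers the Mmp2 proenzyme to Mmp14 for activation, read 7.65 in the anterior and 7.27 in the posterior array. The Timp2 difference was 1.31-fold toward anterior tissue, just past the threshold. It compares with a local spread of 0.14, the robust standard deviation of the differences of the 500 genes nearest in mean level, which is not a replicate error. The anterior excess of Mmp2 was 0.15 and that of Mmp14 0.20 on the log2 scale, with local spreads of 0.11 and 0.16.

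Mmp16, another membrane-anchored MMP that can activate the Mmp2 proenzyme, read 8.63 in the anterior and 8.26 in the posterior array. Its 1.29-fold difference lay just under the threshold, and it was 3.51 times the local spread of 0.11, the largest such ratio among the detected members. The ratio was 2.72 for Timp2 and 2.38 for Adamts19, and no other detected member exceeded 2. Differences in these ratios were not corrected for the drift over all genes described below, so their order depends on it. With that drift subtracted, Mmp16 differed by 0.29 and Timp2 by 0.30 toward anterior tissue. Adamts19 differed by 0.49 toward posterior tissue. Timp3, a TIMP that stays bound to the matrix and also inhibits several ADAM and ADAMTS enzymes, read 7.35 in the anterior and 7.15 in the posterior array. The remaining inhibitors were not detected. Timp1 read 4.42 in both arrays, and Timp4 read 4.73 in the anterior and 4.92 in the posterior array.

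The direction of these genes has to be read against a drift over all genes. Among the 4509 brighter genes, those above the median mean level of detected genes (6.67), 74.8% had the higher value in anterior tissue, with a median difference of -0.08. The 6 members in this range, Mmp2, Mmp14, Mmp16, Timp2, Timp3 and Adam10, all had the higher value in anterior tissue, with a median difference of -0.20. After a smooth trend of the difference with mean level was subtracted, 5 of the 6 remained on the anterior side and Adam10 lay 0.02 on the posterior side. Timp2 then differed by 0.30 and Mmp16 by 0.29 toward anterior tissue, both under the threshold. Mmp2 differed by 0.07, Mmp14 by 0.11 and Timp3 by 0.11 toward anterior tissue. Each of these was less than its local spread of 0.11, 0.16 and 0.13. Of the 23 dimmer detected members 13 had the higher value in posterior and 7 in anterior tissue, against 58.8% of all dimmer detected genes with the higher value in anterior tissue.

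**Figure D2:**
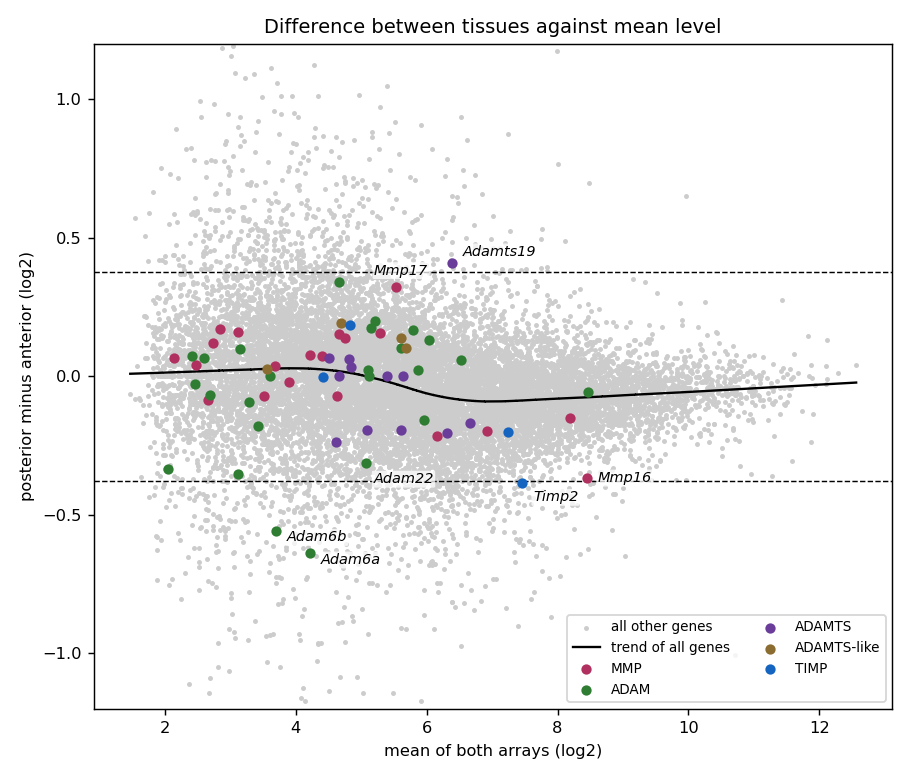
Posterior minus anterior difference (log2, vertical axis) against the mean of both arrays (log2, horizontal axis) for all genes (grey) and the 65 members (coloured by family), with the trend of all genes as a black line and 1.3-fold as dashed lines. Adamts19 lies above the upper line, Timp2 lies just beyond the lower one and Mmp16 lies just inside it, while 33 genes beyond 1.2 on the vertical axis are not drawn.

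The other detected MMPs went both ways. Mmp17, an MMP held at the membrane by a lipid anchor, read 5.37 in the anterior and 5.69 in the posterior array, a 1.25-fold difference toward posterior tissue. Mmp11, a stromelysin that furin activates inside the cell and that is known from remodelling mesenchyme, read 6.27 in the anterior and 6.06 in the posterior array. Mmp23, an MMP with an unusual cysteine-rich tail, read 5.20 and 5.36. None of these differences exceeded 2 times its local spread. The MMPs with a membrane anchor therefore did not share a direction: Mmp14 and Mmp16 were higher in anterior and Mmp17 in posterior tissue, and Mmp24, known from the nervous system, was not detected.

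The remaining 14 MMPs were not detected. They included all 4 collagenases measured, Mmp1a, Mmp1b, Mmp8 and Mmp13, of which Mmp13 is known from hypertrophic cartilage. The stromelysins Mmp3 and Mmp10, the matrilysin Mmp7 and the macrophage elastase Mmp12 were also under the floor, as was Mmp9, the gelatinase of osteoclasts and inflammatory cells. Mmp13 read 2.71 in the anterior and 2.62 in the posterior array, and Mmp9 read 4.17 and 4.25. In RefSeq 10 MMP genes lie together on chromosome 9, and none of the 9 measured here was detected. The others under the floor were Mmp19, Mmp21, Mmp24 and Mmp28, together with the enamel proteinase Mmp20 of the chromosome 9 cluster.

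Promoter sequences were compared because MMPs and TIMPs differed widely in detection. RefSeq windows of the build GRCm38.p6, from 250 bases before to 50 bases after the annotated start, were available for 40 of the 65 members, 16 of them detected and 24 not (the first window listed was used where a gene had several). Shown are 2 detected genes of the Mmp2 activation complex and 2 genes of the undetected chromosome 9 cluster, 5′ to 3′ on the strand of the gene. Capitals mark 3 motifs searched on both strands: the GC box GGGCGG, the TATA box TATAAA and the AP-1 motif TGANTCA. The windows are chr11:118355362-118355661 (minus strand) for Timp2, chr14:54431348-54431647 (plus strand) for Mmp14, chr9:7272264-7272563 (plus strand) for Mmp13 and chr9:7445572-7445871 (plus strand) for Mmp3.
Timp2: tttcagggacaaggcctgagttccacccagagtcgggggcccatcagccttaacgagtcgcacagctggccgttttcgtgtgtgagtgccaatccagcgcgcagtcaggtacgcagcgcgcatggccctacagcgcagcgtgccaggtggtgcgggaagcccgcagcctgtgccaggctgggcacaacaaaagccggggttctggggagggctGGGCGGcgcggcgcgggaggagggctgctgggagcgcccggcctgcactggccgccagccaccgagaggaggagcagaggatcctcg
Mmp14: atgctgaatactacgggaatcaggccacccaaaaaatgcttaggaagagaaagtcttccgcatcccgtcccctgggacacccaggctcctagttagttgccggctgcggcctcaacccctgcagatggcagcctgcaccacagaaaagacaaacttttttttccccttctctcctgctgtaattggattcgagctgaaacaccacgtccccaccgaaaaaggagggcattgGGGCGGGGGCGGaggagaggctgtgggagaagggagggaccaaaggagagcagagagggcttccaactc
Mmp13: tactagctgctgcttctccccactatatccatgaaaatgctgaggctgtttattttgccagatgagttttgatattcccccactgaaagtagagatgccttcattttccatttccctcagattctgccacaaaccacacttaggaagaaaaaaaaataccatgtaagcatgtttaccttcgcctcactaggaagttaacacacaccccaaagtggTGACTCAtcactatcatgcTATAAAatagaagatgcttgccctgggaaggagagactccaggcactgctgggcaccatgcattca
Mmp3: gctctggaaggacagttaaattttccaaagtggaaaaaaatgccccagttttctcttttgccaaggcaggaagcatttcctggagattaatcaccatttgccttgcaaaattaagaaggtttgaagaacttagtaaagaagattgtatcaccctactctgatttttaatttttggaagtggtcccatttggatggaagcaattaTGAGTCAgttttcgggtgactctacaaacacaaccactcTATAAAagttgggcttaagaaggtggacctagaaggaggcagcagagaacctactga

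Timp2 held 1 GC box and Mmp14 held 2 adjoining GC boxes, and neither held the TATA or the AP-1 letters. Mmp13 and Mmp3 each held 1 AP-1 motif upstream of 1 TATA box and no GC box. GC content was 68.7% for Timp2, 56.0% for Mmp14, 43.7% for Mmp13 and 40.0% for Mmp3. A promoter with TATA and AP-1 motifs is the textbook form for MMPs induced by growth factors and cytokines.

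The same letters were counted in all 40 member windows. The AP-1 letters stood in 0 of 16 windows of detected members and 10 of 24 windows of members not detected. They stood in 4.52% of the windows of all detected genes, 10.4% of those of all genes not detected and 7.93% of all 27025 gene windows. The TATA letters stood in 1 of 16 windows of detected members, that of Adamts1, and in 13 of 24 of members not detected, against 6.75% of all detected genes and 19.3% of all genes not detected (14.2% of all windows). A GC box stood in 11 of 16 and 6 of 24, against 66.2% of all detected genes and 32.7% of all genes not detected (35.9% of all windows). The GC box shares and the TATA share of detected members were thus close to those of other genes with the same detection. The CpG ratio, the observed over the expected number of CG pairs, had a median of 0.70 in detected members and 0.10 in members not detected, and 0.78 and 0.31 over all detected genes and all genes not detected. The chromosome 9 cluster held much of this pattern, with AP-1 in 7 and TATA in 8 of its 9 measured genes. In the 15 other members not detected AP-1 stood in 3 and TATA in 5. A match describes letters in a window and does not show a bound site.

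**Figure D3:**
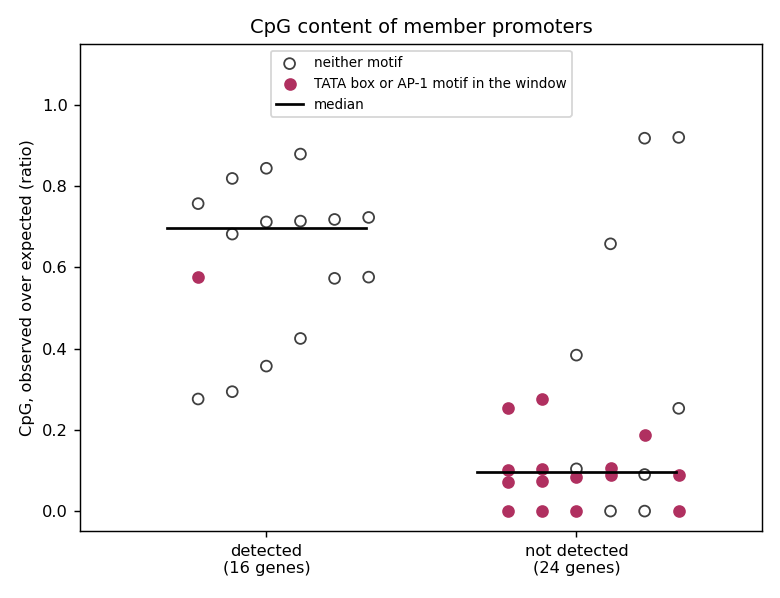
CpG ratio (observed over expected, vertical axis) of the promoter windows of 16 detected and 24 undetected members, with bars at the medians of 0.70 and 0.10. Filled points hold a TATA box or AP-1 motif, which is 1 gene among the detected members.

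Of the ADAMs of somatic tissues that carry a zinc site, 7 of 8 measured were detected and none passed 1.3-fold. Adam10, the sheddase that cuts Notch receptors and ephrins, read 8.49 in the anterior and 8.43 in the posterior array. Adam9, a widely expressed sheddase, read 6.50 and 6.56. These values differed by less than their local spreads of 0.10 and 0.18. Adam19, known from the heart and nerves in mice, read 5.97 in the anterior and 6.10 in the posterior array. Adam15 read 6.04 and 5.88, and Adam12, a meltrin of muscle and connective tissue, read 5.10 and 5.12. Adam33 read 5.13 in both arrays. Adam8, an ADAM of leukocytes, lay below the floor at 5.06 in the anterior array and read 5.23 in the posterior array. Its posterior value was 1.13-fold above the floor, and the part of leukocytes in it was not tested. Adam28 was not detected. No member of this group differed by more than its local spread.

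Adam11, Adam22 and Adam23, somatic ADAMs without a working zinc site that bind Lgi proteins at synapses, were all 3 detected. Adam22 read 5.23 in the anterior array, 1.13-fold above the floor, and lay under the floor in the posterior array (4.92). Adam11 read 5.11 in the anterior and 5.31 in the posterior array. Adam23, the only member with 2 probe sets, read 5.85 and 5.87. The 3 genes did not share a direction. Among neural markers Dcx passed 1.3-fold toward anterior and Nefm toward posterior tissue, and summed neural levels were 8.67 in anterior and 8.44 in posterior tissue. The part of nerve tissue in the Adam22 value was not tested.

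Of 14 ADAMs known from the testis and epididymis, 12 were not detected. Adam1a, a fertilin subunit, read 5.56 in the anterior and 5.66 in the posterior array, and Adam4 read 5.70 and 5.87. Adam6a and Adam6b, near-identical copies that lie in the immunoglobulin heavy chain region, were past 1.3-fold, with the higher reading on the anterior side. Adam6a read 4.54 in the anterior and 3.90 in the posterior array, and Adam6b read 3.97 and 3.42. Both stayed under the floor in both arrays, so no fold is given, and the copies may share signal. The other 10 undetected genes of this group included Adam2 and Adam3, sperm surface proteins.

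Among ADAMTS genes Adamts19 had the widest difference. Adamts19, a secreted proteinase whose loss is known from heart valve disease in humans and mice, read 6.19 in the anterior and 6.60 in the posterior array. It was 1.33-fold higher in posterior tissue, with a local spread of 0.17. After the trend with mean level was subtracted it was 1.40-fold higher, the only detected member past the threshold by that measure. With an offset of 32 added on the linear scale its log2 difference was 0.30, under the threshold. With the trend subtracted, 2.47% of all detected genes passed toward posterior and 3.12% toward anterior tissue.

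Of 5 proteoglycan-cleaving ADAMTS genes measured 2 were detected, Adamts1 and Adamts5. Adamts5 counted as detected through its anterior array alone, so the filter itself favoured its anterior direction. Adamts1, which cuts versican and aggrecan, read 6.74 in the anterior and 6.58 in the posterior array. Adamts5 is an aggrecanase that with others clears versican from the tissue between mouse digits. It read 5.19 in the anterior array, 1.10-fold above the floor, and lay under the floor in the posterior array (5.0). Neither difference was more than 1.02 times its local spread. With the trend subtracted, Adamts1 differed by 0.08 toward anterior tissue, less than its local spread of 0.16. Adamts4, Adamts8 and Adamts20 were not detected. Versican itself (Vcan), the main proteoglycan of early mesenchyme, read 9.51 in the anterior and 9.69 in the posterior array. Vcan differed by 0.18 with a local spread of 0.08, under 1.3-fold.

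None of the remaining ADAMTS genes passed 1.3-fold. Adamts10, which binds fibrillin microfibrils, read 6.41 in the anterior and 6.21 in the posterior array. Adamts18 read 5.70 and 5.51. The anterior excess was 0.20 for Adamts10 and 0.19 for Adamts18, beside 0.17 for Adamts1 and 0.19 for Adamts5. Adamts7, a proteinase of cartilage oligomeric matrix protein, read 5.39 in both arrays, and Adamts16 read 5.63 in both. Adamts12 and Adamts13, the latter the proteinase of von Willebrand factor, were not detected. Of the ADAMTS-like proteins, Adamtsl4, which binds fibrillin, read 5.63 in the anterior and 5.73 in the posterior array, and Adamtsl5 read 5.54 and 5.68. Adamtsl1 and Adamtsl2 were not detected.

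Equal values to every deposited digit occurred in 5 members, Adam30, Adam33, Adamts7, Adamts12 and Adamts16. Over all genes 493 (3.32%) had equal values, and 179 of the detected genes (1.99%). What makes the deposited values of a gene equal was not tested. The 36 members not detected ranged from 1.89 to 4.92 on the log2 scale. Of these, 30 differed by less than 0.2, 20 with the higher value in posterior and 14 in anterior tissue among all 36.

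Genes that activate, hold or inhibit these proteinases were set beside them. Pcsk5, a furin-like convertase that can activate proenzymes, read 6.29 in the anterior and 5.74 in the posterior array, and it alone among 8 measured activation genes passed 1.3-fold. Its anterior excess of 0.55 compares with a local spread of 0.18. Furin, the main convertase for membrane-anchored MMPs, read 6.11 and 6.02, and Pcsk7 read 5.46 and 5.35. Plau, Plat, Plg and Plaur, of the plasminogen system, were not detected. Of 15 other inhibitors and partners none passed 1.3-fold. Reck, a membrane-anchored inhibitor of several MMPs, read 7.81 in the anterior and 7.51 in the posterior array, and Bsg, a surface glycoprotein known to induce MMPs, read 9.56 and 9.22. The anterior excess was 0.30 for Reck and 0.34 for Bsg, with local spreads of 0.12 and 0.08. Both lay on the side of Timp2 and Mmp16, which was also the side of 74.8% of the brighter genes. With the trend subtracted, the anterior excess was 0.22 for Reck and 0.28 for Bsg. Tspan15, a tetraspanin that guides Adam10, differed by 0.18 toward posterior tissue.

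Among substrates in the matrix 1 of 13 measured genes passed 1.3-fold. This was Col1a2, a chain of type I collagen, which read 8.00 in the anterior and 7.35 in the posterior array, a difference of 0.65 with a local spread of 0.13. Its partner chain Col1a1 read 6.67 and 6.50, and Ncan, a neural proteoglycan, read 4.99 and 5.15. The tolloid group, which trims procollagens, held no gene past 1.3-fold among 6 measured. Its detected members were Pcolce2, an enhancer of procollagen processing, which read 6.92 and 6.74, and Bmp1, which read 6.94 and 6.88.

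Among 15 membrane substrates Efna5 alone passed 1.3-fold. Efna5, an ephrin that ADAM enzymes can cut, read 8.53 in the anterior and 7.98 in the posterior array. The cadherin Cdh2 read 7.39 and 7.10, and the receptor Notch2 read 7.11 and 6.88, while the ligand Jag1 read 5.60 and 5.71. Adam10, the sheddase of several of these proteins, differed by 0.06 as given above. The median difference was 0.05 for the 10 detected matrix substrates and -0.02 for the 10 detected membrane substrates, beside -0.07 for all detected genes.

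**Figure D4:**
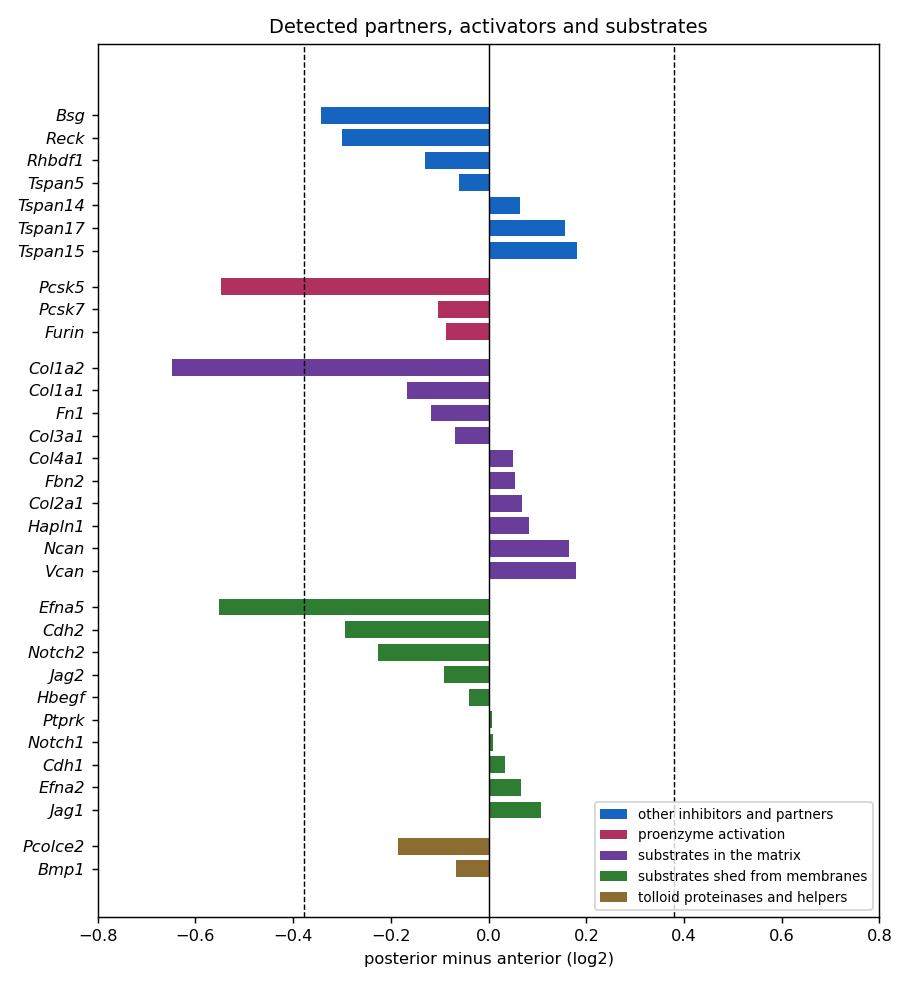
Posterior minus anterior difference (log2, horizontal axis) of the detected partners, activators and substrates, coloured by list, with dashed lines at 1.3-fold. Pcsk5, Col1a2 and Efna5 pass the line toward anterior tissue and no gene passes the line toward posterior tissue.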

How the data were processed

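Per the labels, the authors made the deposited log2 values with RMA in Affymetrix Expression Console, using its core gene-level setting, which gives 1 value per probe set. The submitters' processing notes name the build mm9. The table held 23332 probe sets, 14996 with exactly 1 gene symbol in the platform annotation, 1019 with several and 7317 with no entry; 0 columns belonged to no sample. Log2 values of probe sets with the same symbol were averaged. Gene identifiers of all 65 members matched RefSeq (GRCm38.p6), which gave names and promoter windows. A further 4 probe sets with several symbols named ADAM genes and were left out by the rule.

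Each gene's posterior minus anterior difference was computed with Python 3.11.15 and pandas 2.3.3, beside the local spread (1.4826 times the median absolute deviation). The trend with mean level was a lowess curve of fraction 0.3 (statsmodels 0.14.6). These steps were checked on simulated data whose changes were larger than the difference of any member here. That check does not cover calls near 1.3-fold. With 1 array per group there is no p-value, and precision is limited by the number of arrays. Every detected member is named, and members not detected are named where they pass 1.3-fold or complete a group. Of the other genes of the pathway, named are those past 1.3-fold and up to 3 further detected ones per list; the plasminogen genes were added after their values were seen. Members, lists and rules were chosen with earlier results of these data known.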

Additional observations from a re-analysis of the deposited data

How the results depend on the processing

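Adamts19 kept its posterior direction and Timp2 and Mmp16 their anterior direction under all alternatives run, which was largely fixed in advance. An offset cannot change a sign, and centring the arrays moved every gene by the same 0.04. The trend moved these genes by less than their differences. No detected member moved by more than its local spread in any of 203 single-gene values. Not all of these could move: the floor settings leave a gene's difference unchanged, and the brightest probe set can change only Adam23. Timp2 fell under 1.3-fold, leaving 0 detected members past it toward anterior tissue, with arrays centred on their medians, with either form of the trend subtracted, and with an offset of 32 on the linear scale. The offset, which shrinks differences of dim genes by construction, also took Adamts19 under the threshold and left 0 members past 1.3-fold toward posterior tissue, and 0 of all 65 members in either direction. At 1.5-fold, 0 members passed toward posterior and 1 toward anterior tissue, and 0 detected ones either way. At 1.2-fold, 3 passed toward posterior and 7 toward anterior tissue, of which 2 and 3 were detected. Shares of all genes at 1.2-fold and 1.5-fold are not set beside these counts, so no direction of the family can be read from them. With the floor at the 90th or the 99th percentile, 39 or 13 members were detected, with a median difference of 0.02 or -0.17. Medians of all genes over those floors are not given, and brighter genes drifted toward anterior tissue as a whole. No paired analysis was possible because each group holds 1 array, and no replicate could be left out for the same reason.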
